A study of Arabidopsis thaliana with 82 samples.

Results

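The genes described here were higher in grafted hypocotyls, above and below the graft, than in separated or intact tissue. The comparison is of means over 72 and 120 h after cutting. These genes were chosen from library-normalised values, taking the mean of the 4 libraries of each condition at those times. A gene was kept when the lower of its grafted top and grafted bottom values was at least 2 times the highest of separated top, separated bottom and intact, and at least 50. Of 27416 genes listed, 126 met this (0.460%). All 126 passed the filter on low values, and all are annotated as protein coding.

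Arabidopsis thaliana Col-0 seedlings, 7 days old, were kept at 20 °C with 8 h of light a day, on a medium that held no sucrose. One cotyledon was removed from every plant, the intact controls included. The remaining plants were also cut across the hypocotyl, the stem below the cotyledons, and were either left apart (separated top, separated bottom) or put together from the parts of different plants (grafted top, grafted bottom). Poly(A) RNA of hypocotyl tissue was sequenced at 6, 12, 24, 48, 72, 120, 168 and 240 h, and of intact plants also at 0 h, in 2 libraries per group, 82 in all. The plants carry no transgene or mutation by their labels, a grafted plant is a chimera of different Col-0 plants, and a separated top or bottom has lost the other organ system. The number of plants pooled for each library could not be found in the labels.

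Sugars and auxin move down the stem from the shoot, and a cut interrupts both. Phloem, the sugar-conducting tissue, is made of sieve elements that lose their nuclei as they mature, and of companion cells that supply them. The cambium is the layer of dividing cells that gives rise to new phloem and xylem, and it is active when a graft forms new vascular strands. Genes of both tissues stood among the 126.

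Column sums of the table ran from 10.05 to 19.7 M (1e6) and replicate libraries correlated across genes at r = 0.971 to 0.993. A value of 50 stood for 23.4 to 45.2 reads in the 28 libraries whose depth could be read from the steps between low values, so low values rest on few reads. These limits cover counting error only. A summed value of 13 root hair, root cap and root meristem markers stood at 3012 and 3393 in separated tops at 72 h and at 377 and 465 in grafted tops, and these markers are given again beside the results they move with. In bulk tissue, fewer cells of a type and less RNA per cell cannot be told apart.

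Some members are shown with the bases before their annotated start, because they carry the phloem and wound part of the list: the sucrose synthases SUS5 (AT5G37180, chr5:14717991-14718140, + strand) and SUS6 (AT1G73370, chr1:27588979-27589128, - strand), the sieve element regulator NAC045 (AT3G03200, chr3:738630-738779, - strand) and the wound-responsive factor NAC096 (AT5G46590, chr5:18905108-18905257, + strand). Each run is 150 bases of the RefSeq genome of build TAIR10.1, read 5′ to 3′ on the strand of the gene. Capitals mark matches, on either strand, to the motifs searched.
SUS5: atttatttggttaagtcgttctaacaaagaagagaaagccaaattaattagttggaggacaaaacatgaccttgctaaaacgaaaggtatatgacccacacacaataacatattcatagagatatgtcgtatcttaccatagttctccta
SUS6: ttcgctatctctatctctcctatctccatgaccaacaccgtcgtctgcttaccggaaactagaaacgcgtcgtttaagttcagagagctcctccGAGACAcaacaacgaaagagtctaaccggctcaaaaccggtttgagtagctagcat
NAC045: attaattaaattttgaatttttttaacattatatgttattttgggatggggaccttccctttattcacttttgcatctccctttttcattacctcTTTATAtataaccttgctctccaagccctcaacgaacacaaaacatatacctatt
NAC096: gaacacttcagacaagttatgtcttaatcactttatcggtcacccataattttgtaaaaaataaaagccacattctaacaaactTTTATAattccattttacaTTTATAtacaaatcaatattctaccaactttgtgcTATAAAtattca
The match in SUS6 is to an auxin response element, and those in NAC045 and NAC096 are to a TATA box. SUS5 held no match in this window.

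Motifs were searched on both strands in the 250 bases before the start of every listed protein-coding gene. The TATA box (TATAAA) was found in 54.0% of members and 47.7% of all 26709 such genes. The auxin response element (TGTCTC or TGTCGG) was found in 19.0% and 14.6%, and the GATA motif (GATAAG) in 17.5% and 12.2%. The W-box (TTGACC or TTGACT), the element bound by WRKY factors, was found in 19.8% of members and 28.5% of all genes, and the telo box (AAACCCT) in 3.2% and 7.3%. The G-box (CACGTG) was found in 7.9% and 6.6%, the evening element core (AATATCT) in 8.7% and 10.09%, the ABRE (ACGTGTC) in 2.4% and 3.7%, and the GCC box (GCCGCC) in 0 members and 1.9%. These shares are descriptions with no test.

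At the times used for the choice, the median over members was 212 in grafted tops, 324 in grafted bottoms, 80.5 in separated tops, 32.9 in intact tissue and 11.75 in separated bottoms. The highest condition that was not grafted was the separated top for 106 members, intact tissue for 13 and the separated bottom for 7. Separated bottoms were the lowest of the 5 conditions for 97 members. The ratio by which members were chosen ran from 2.0 to 24.6 with a median of 2.38, and 17 members had a ratio of at least 3. Grafted tops and bottoms lay within 1.5 times of each other for 100 members, and for 10 the bottom was more than 2 times the top. These values chose the members and carry no test.

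Just inside the fold stood AT1G21510 (2.0), AT3G14170 (2.0048) and SUS6 (2.0205). Just outside stood SEOa (AT3G01670, 1.9986), which encodes a sieve element filament protein, the aquaporin PIP2;5 (1.9925) and UMAMIT29 (1.9904), an amino acid exporter. By level, the copper transporter COPT4 (50.25), RRTF1 (51.75) and AT3G24780 (54.5) were just inside, and CBF1 (48.0), AT2G36355 (47.0) and AT3G01940 (47.0) just outside.

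By their choice, members were higher in joined than in separated or intact tissue in the mean over 72 and 120 h. The criterion did not require that they be raised only in joined tissue. Over those times their median was 80.5 in separated tops, above the 32.9 of intact tissue, and 11.75 in separated bottoms. The higher level in joined tissue did not hold for every member at each of these times, or over the whole course. At 72 h alone the ratio was 0.148 for GRP9 and 0.145 for NAS1, below a condition that was not grafted. At 120 h alone it was 0.304 for AT4G23900. At single times, the same criterion was met by 0 members up to 24 h and 1 member at 48 h. It was met by 76 members at 72 h and 63 at 120 h, then by 12 at 168 h and 0 at 240 h. Among all listed genes, the shares at those 8 times were 0, 0, 0, 0.0219, 0.500, 0.711, 0.153 and 0.274%. Both 72 and 120 h alone were met by 19 members, 72 h only by 57, 120 h only by 44 and neither by 6. The fold was larger at 72 h for 73 members and at 120 h for 53, a division made after the values were seen and therefore not tested.

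**Figure D1:**
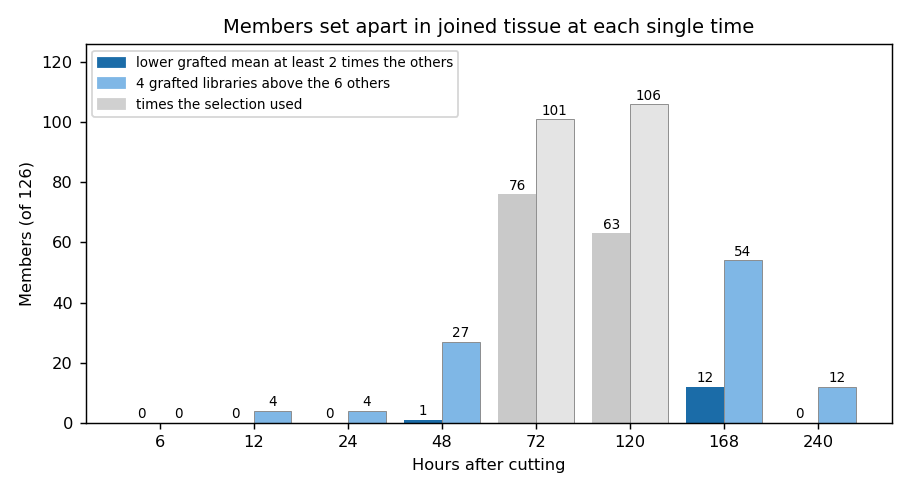
The number of members, of 126, on the vertical axis against hours after cutting. The left bar of each pair counts members whose lower grafted mean was at least 2 times every separated and intact mean and at least 50. The right bar counts members whose 4 grafted libraries all lay above the 6 others, and grey bars are the times used for the choice. Outside those times the counts were highest at 168 h (12 and 54).

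The 4 grafted libraries lay above all 6 separated and intact libraries for 4 members at 12 h (0.215% of all listed genes) and 4 at 24 h (0.226%). This count was 27 at 48 h (0.788%) and, after the times of the choice, 54 at 168 h (1.44%) and 12 at 240 h (1.47%). At 6 h this held for 0 members, against 0.0584% of all listed genes. At the times of the choice it held for 101 and 106 members (1.86% and 3.59%), from which nothing is read.

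Of the 73 members with the larger fold at 72 h, 59 were at their highest at 72 h in grafted tops and 58 in grafted bottoms, while 54 were highest at 48 h in separated tops. In grafted tops 6 and in grafted bottoms 7 were highest at 240 h. Their median in the libraries of grafted tops was 221 and 206 at 48 h, 284 and 280 at 72 h and 151 and 143 at 120 h. In separated tops it was 150 and 167 at 48 h, 89 and 103 at 72 h and 83 and 100 at 120 h. The values at 72 and 120 h chose these genes and also made this group of 73. Nothing is therefore read from the gap there or from the counts of peaks. In separated bottoms the median did not exceed 45 in any library at any time.

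The members with the larger fold at 120 h had a median of 356 and 372 in grafted tops at 120 h, 359 and 355 at 168 h and 268 and 283 at 240 h. In separated tops it was 48 and 62 at 120 h, 177 and 222 at 168 h and 299 and 301 at 240 h. At 240 h the separated tops were slightly above the grafted tops in this median, and separated bottoms stood at 19 in both libraries.

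**Figure D2:**
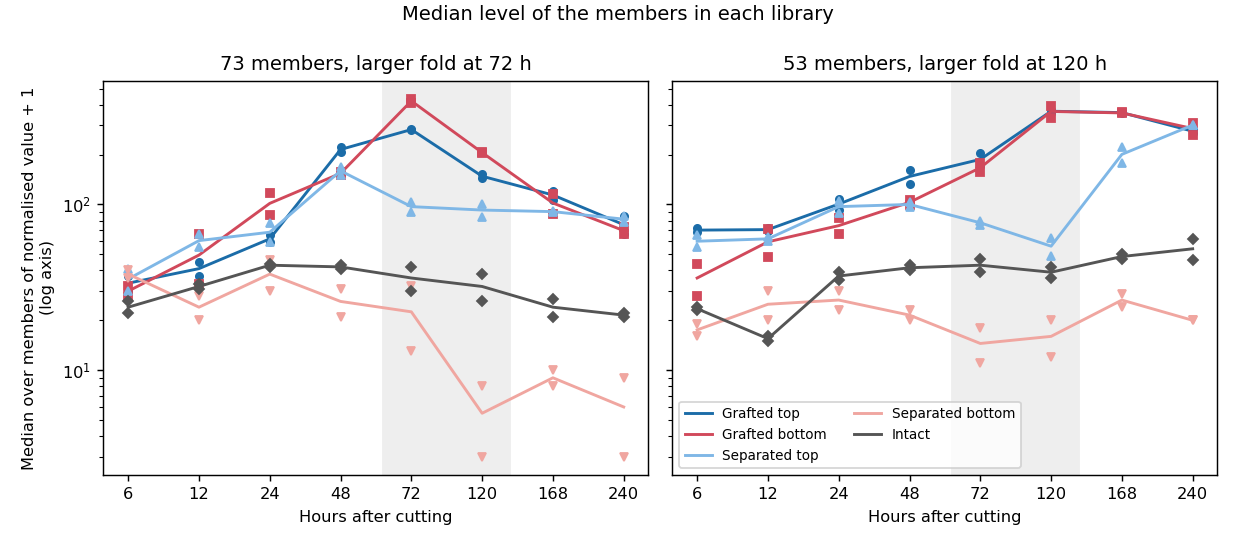
The median over members of the library-normalised value plus 1 (log axis) against hours after cutting, for members with the larger fold at 72 h (left, 73 genes) and at 120 h (right, 53 genes). Points are single libraries, lines join the means of the 2 libraries of a condition, and the grey band marks the times used for the choice; separated tops on the left are at 150 and 167 at 48 h and stay lower afterwards, and on the right they are at 48 and 62 at 120 h and 299 and 301 at 240 h.

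The summed root markers of separated tops were highest at 72 and 120 h. They stood at 411 and 616 at 48 h, 3012 and 3393 at 72 h, 2549 and 2707 at 120 h, 1103 and 1335 at 168 h and 12 and 18 at 240 h. In separated bottoms 12 of the 13 markers were at 0 in all 4 libraries of 72 and 120 h. In grafted bottoms the sum was between 4 and 38 at every time, and in intact tissue at 72 h it was 182 and 195. The part of root tissue in the lower level of separated tops was not tested.

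Other marker lists also differed between conditions. The 24 endodermis and suberin markers summed to 19272 and 19513 in separated tops and 18057 and 21743 in grafted tops at 72 h, and to 20530 and 22358 against 12746 and 14850 at 120 h. In bottoms at 120 h they summed to 22551 and 24602 in grafted and 2140 and 3136 in separated tissue. Grafted tops were thus below separated tops at 120 h, and grafted bottoms above separated bottoms. A list of 8 shoot meristem markers summed to 754 and 855 in separated and 849 and 994 in grafted tops at 72 h, and to 481 and 547 against 784 and 900 at 120 h. In bottoms at 120 h it summed to 556 and 618 in grafted and 184 and 239 in separated tissue. The 14 shoot epidermis, cuticle and guard cell markers summed at 72 h to 21518 and 27632 in intact tissue, 10287 and 14230 in grafted tops, 10337 and 11434 in separated tops, 11424 and 16815 in grafted bottoms and 7383 and 12566 in separated bottoms. At 72 h intact tissue was above the cut plants in this list. No list of markers for the hypocotyl itself was used. The part of these tissues in the members' values was not tested.

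Tests were made at times outside the choice, with limma on log2(x + 1), where x is the value scaled so that a median library sums to 1 M, and with Benjamini-Hochberg adjustment over 20766 genes. Differences are log2 on that scale with the standard error after ±. A gene was called higher in joined tissue when grafted tops and grafted bottoms each exceeded separated tops, separated bottoms and intact tissue, 6 contrasts, all with adjusted p under 0.05. At 6 to 24 h, with 6 libraries a side, limma made this call for 0 members (0% of all genes), and 0 members passed it without adjustment (0.00963%). At 48 h, with 2 libraries a side, it made the call for 0 members (0.0193% of all genes), and 8 members passed without adjustment (0.154%). At 168 and 240 h, with 4 libraries a side, 11 members passed (0.693%), and 19 did so without adjustment (1.07%).

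Grafted bottoms differed from separated bottoms at all windows tested. Higher in grafted bottoms were 71 members at 6 to 24 h (17.5% of all genes tested), with a median difference of 0.56, 111 at 48 h (21.2%, median 2.003) and 123 at 168 and 240 h (32.4%, median 2.53). Lower were 4 (17.1%), 1 (21.4%) and 0 (31.0%). The median of all genes lay within 0.01 of 0 in each window. The positive sign in members may be carried over from their choice, which was not tested. The 1 member lower at 48 h was AT1G02460, named after its values were seen, at 1 and 7 in grafted and 47 and 27 in separated bottoms.

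In tops, few members passed the same tests between grafted and separated plants. Higher in grafted tops were 0 members at 6 to 24 h (0.0337%, 7 without adjustment), 1 at 48 h (0.246%, 24 without adjustment) and 21 at 168 and 240 h (11.7%), with medians of 0.42 at 48 h and 0.17 late. The difference was above 0 for 115 of 126 members at 48 h and 94 late, passing or not, where the median of all genes was -0.018 and -0.058. Lower were 0 (0.313%), 0 (0.958%) and 3 (14.8%). The shares given are of calls with adjustment. None was worked out for the counts without adjustment or for the counts above 0, so nothing is read from those. A positive sign may also be carried over from the choice of members, which was not tested. The 1 member at 48 h was NAS1 (AT5G04950), a nicotianamine synthase of metal transport, named after its values were seen, at 365 and 371 in grafted and 107 and 58 in separated tops. That call was lost without any 1 of these 4 libraries, and without replicate 1 of separated tops at 168 h the late count was 13.

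The difference of differences, grafted minus separated in tops less the same in bottoms, was below 0 with adjusted p under 0.05 by limma for 50 members at 6 to 24 h (11.6%), 88 at 48 h (15.9%) and 116 at 168 and 240 h (33.6%). It was above 0 for 3 (10.4%), 2 (12.9%) and 0 (25%). The median over members was -0.62, -1.61 and -2.35. For these genes the grafted minus separated difference was larger below the cut than above it. The median top minus bottom difference at 48 h was 1.98 in separated and 0.29 in grafted plants. At the times of the choice, separated tops were the highest condition that was not grafted for 106 members and separated bottoms the lowest for 97. The negative sign at other times may be carried over from that choice, which was not tested.

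**Figure D3:**
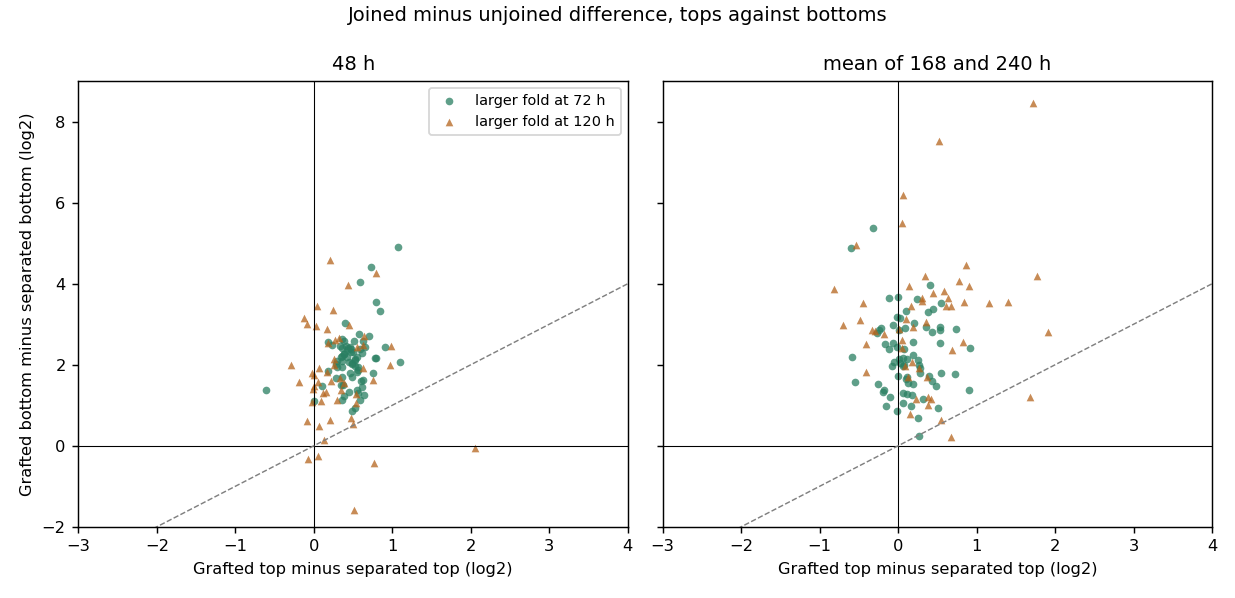
For each member, the grafted minus separated difference in bottoms (vertical, log2) against the same in tops (horizontal, log2) at 48 h (left) and over 168 and 240 h (right). Each point is 1 gene, the dashed line marks equal differences, and symbols give the time of the larger fold; most points lie above the dashed line, with medians of 2.003 in bottoms and 0.42 in tops at 48 h.

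Against intact tissue, many members were higher in grafted and in separated tops. At 6 to 24 h, 66 members were higher in grafted tops (31.7% of all genes), 70 in grafted bottoms (20.4%) and 72 in separated tops (32.0%), and 7 (30.8%), 12 (28.4%) and 7 (30.8%) were lower. In separated bottoms 34 were higher (24.3%) and 40 lower (30.4%). Higher than intact at 48 h were 100 members in grafted tops (24.4%), 91 in grafted bottoms (15.6%) and 87 in separated tops (28.9%), while 0 (22.4%), 5 (19.4%) and 2 (23.2%) were lower. In separated bottoms 15 were higher (19.7%) and 45 lower (23.5%). At 168 and 240 h the counts were 120 (23.7%), 121 (21.5%) and 108 (34.4%) higher, with 0 (21.8%), 0 (22.0%) and 2 (24.1%) lower, and in separated bottoms 24 were higher (29.3%) and 76 lower (28.5%). These comparisons share the intact libraries.

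At the times outside the choice, most members were higher in tops than in separated bottoms, in grafted and in separated plants. Separated tops exceeded separated bottoms for 76 members at 6 to 24 h (40.4% of all genes), 101 at 48 h (38.8%) and 117 at 168 and 240 h (41.7%), and were below them for 12 (31.6%), 5 (26.1%) and 2 (28.8%). Grafted tops exceeded separated bottoms for 64 (40.2%), 105 (35.0%) and 121 (34.7%), and were below them for 11 (31.7%), 1 (26.9%) and 0 (30.1%). Grafted bottoms exceeded separated tops for 29 (26.7%), 28 (19.6%) and 37 (17.2%), and were below them for 36 (37.8%), 12 (29.6%) and 4 (23.3%).

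Within grafted plants, tops exceeded bottoms for 33 members at 6 to 24 h (37.8%), 33 at 48 h (24.6%) and 1 at 168 and 240 h (4.92%). They were below bottoms for 32 (27.0%), 20 (18%) and 19 (6.62%). Counts of members that differed within the graft were thus smaller late, as they were over all genes.

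From 24 to 48 h, 65 members rose in grafted tops (4.83% of all genes), 18 in grafted bottoms (3.21%), 51 in separated tops (7.44%), 2 in separated bottoms (4.78%) and 0 in intact tissue (0.125%). The numbers that fell were 5 (4.58%), 0 (2.37%), 11 (6.16%), 15 (6.53%) and 0 (0.0626%). From 48 h to 168 and 240 h, 37 rose and 67 fell in grafted tops (24.9% and 24.5%), 36 and 51 in grafted bottoms (20.1% and 17.7%), and 37 and 64 in separated tops (26.2% and 25.8%). In separated bottoms 16 rose and 51 fell (13.6% and 12.4%), and in intact tissue 14 and 31 (7.28% and 8.73%). The contrasts of separated tissue were added after the data were seen. In intact tissue 4 members were higher and 2 lower at 48 h than at 24 h by limma without adjustment. No share of all genes was worked out for these counts, and nothing is read from them.

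The phloem list held 24 genes, of which 5 were members. SUS5 and SUS6 encode sucrose synthases of sieve elements. SUS5 stood at 962 and 811 in grafted tops, 943 and 803 in grafted bottoms, 272 and 304 in separated tops, 22 and 54 in separated bottoms and 62 and 57 in intact tissue at 72 h. These values helped to choose the gene. At 48 h it was at 654 and 590 in grafted tops and 391 and 442 in separated tops, and at 223 and 283 in grafted against 68 and 47 in separated bottoms. By limma the bottoms differed by 1.93 ± 0.35 (adjusted p = 1.4e-05) and the tops by 0.57 ± 0.35 (adjusted p = 0.64).

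SUS6 stood at 717 and 888 in grafted bottoms and 152 and 91 in separated bottoms at 48 h, a difference of 2.64 ± 0.40 (limma adjusted p = 5.5e-07). In tops it was at 1338 and 1213 against 808 and 1211, which did not pass (0.36 ± 0.40). Both sucrose synthases were lower at 120 h than at 72 h in grafted tissue, SUS5 at 331 and 379 in tops and SUS6 at 763 and 717.

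SEOR1 (AT3G01680) forms the protein filaments of sieve elements. It stood at 1913 and 1421 in grafted tops and 2370 and 2286 in grafted bottoms at 72 h. Its highest condition that was not grafted was intact tissue, at 978 and 666. At 48 h SEOR1 was at 1106 and 1172 in grafted tops and 1076 and 1164 in intact tissue, so that joined and intact tissue overlapped. Grafted bottoms at 969 and 1225 exceeded separated bottoms at 423 and 409 by 1.36 ± 0.44 at 48 h (limma adjusted p = 0.0096) and by 3.55 ± 0.31 at 168 and 240 h (adjusted p = 4.5e-14).

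NAC045, a transcription factor needed for sieve elements to lose their nuclei, was at 225 and 279 in grafted tops and 282 and 299 in grafted bottoms at 72 h. Separated tops stood at 99 and 77, and intact tissue at 39 and 21. At 48 h grafted bottoms were at 64 and 148 and separated bottoms at 17 and 12, a difference of 2.05 ± 0.38 (limma adjusted p = 1.5e-05). The early nodulin-like gene ENODL9 (AT3G20570) stood at 793 and 1090 against 252 and 178 in the same tissues (2.07 ± 0.34, adjusted p = 2.8e-06).

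Of the 24 phloem genes, 20 were higher and 0 lower in grafted than in separated bottoms at 48 h, with a median difference of 1.67, beside 21.2% and 21.4% of all genes. In tops 1 was higher and 0 lower, with a median of 0.35, beside 0.246% and 0.958% of all genes. Over this list the ratio used for the choice is only a description, since it chose 5 of the genes. Its median was 1.34, with 17 of 24 genes above 1, beside a median of 0.56 over all genes tested. Among those below 1, the companion cell sucrose carrier SUC2 had a ratio of 0.774 and the sugar exporter SWEET11 one of 0.0266.

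The cambium list held 17 genes, of which 4 were members. WOX4 (AT1G46480), a homeobox gene that keeps cambium cells dividing, was at 566 and 738 in grafted tops and 552 and 552 in grafted bottoms at 120 h, against 98 and 138 in separated tops. At 240 h separated tops stood at 619 and 571 and grafted tops at 625 and 668, a far smaller gap. At 48 h grafted bottoms were at 349 and 457 and separated bottoms at 36 and 52, a difference of 2.88 ± 0.28 (limma adjusted p = 7.4e-12). The tops differed by 0.16 ± 0.28 (adjusted p = 0.97).

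HB-8 (AT4G32880), a class III homeodomain factor of early vascular cells, was at 1577 and 1876 in grafted bottoms and 45 and 80 in separated bottoms at 48 h. The difference was 4.57 ± 0.24 (limma adjusted p = 3.3e-20). LBD4 (AT1G31320), a LOB domain factor of the vascular stem cells, stood at 88 and 75 against 2 and 2 (2.71 ± 0.29, adjusted p = 1e-10). Its relative LBD3 (AT1G16530, ASL9 in the annotation) was at 8 and 1 in grafted tops at 72 h and at 194 and 160 at 120 h, where separated tops were at 4 and 12.

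Of the 17 cambium genes, 16 were higher and 0 lower in grafted than in separated bottoms at 48 h (median 2.66), beside 21.2% and 21.4% of all genes. In tops at 48 h 0 were higher and 0 lower, beside 0.246% and 0.958% of all genes. At 168 and 240 h the bottoms had 16 higher and 0 lower (32.4% and 31.0% of all genes). The tops then had 3 higher and 0 lower (11.7% and 14.8% of all genes). The lignin list of 17 genes had 1 member, the laccase LAC11 (AT5G03260), at 1238 and 1075 in grafted tops and 251 and 396 in separated tops at 120 h. The xylem and secondary wall list had 25 genes tested and 0 members.

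The bottoms also differed at 48 h in lists of other roles. Over all genes, 21.2% were higher and 21.4% lower in grafted bottoms. Higher in grafted than in separated bottoms were 15 of 15 cell division genes (median 2.19), 15 of 20 auxin genes (2.56), 14 of 24 endodermis and suberin genes (1.89), 7 of 9 indole glucosinolate and camalexin genes (2.19) and 8 of 15 cell wall remodelling genes (1.46), with 0 lower in each. These 5 lists held 0 members. Of 10 wound NAC and ERF factors, 2 of them members, 7 were higher and 2 lower (2.67). Smaller shares than in these lists passed for jasmonate genes (7 of 16 higher) and salicylic acid and defence genes (4 of 9). Both were still above the 21.2% of all genes that were higher. Xylem and secondary wall genes (5 of 25 higher, 1 lower) and shoot epidermis genes (3 of 14 higher, 1 lower) were near that share in genes higher. In genes lower they were below the 21.4% of all genes. Of the 17 lignin genes 2 were higher and 6 lower, and of the 16 nutrition genes 0 were higher and 3 lower. The shoot meristem list had 2 of 5 tested genes higher and the root list 1 of 13.

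**Figure D4:**
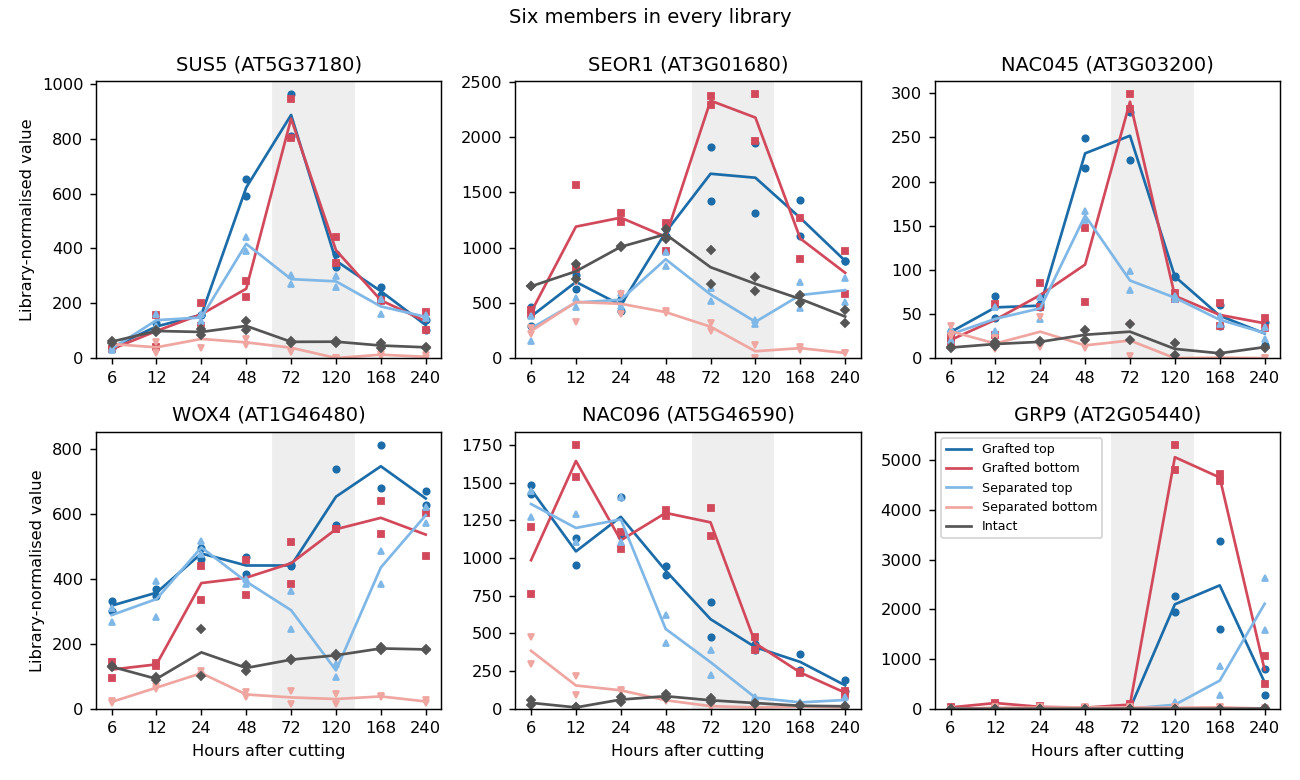
Library-normalised values of 6 members against hours after cutting, with points for single libraries, lines through the means of 2 libraries and a grey band at the times used for the choice. SUS5 and NAC045 peak at 72 h in grafted tissue, WOX4 in separated tops falls to 98 and 138 at 120 h and stands at 619 and 571 at 240 h, and GRP9 in grafted tops is at 1 and 7 at 72 h and at 1943 and 2259 at 120 h.

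NAC096 was the 1 list member that also passed the 6 contrasts late, and it had a different course. It was high at 6 h in grafted tops (1482 and 1426) and separated tops (1446 and 1269) and low in intact tissue (22 and 57). In separated tops it was at 75 and 72 at 120 h, while grafted tops stood at 428 and 388 and grafted bottoms at 478 and 389. In the late window grafted exceeded separated tops by 1.91 ± 0.25 (limma adjusted p = 3.5e-08) and grafted exceeded separated bottoms by 2.82 ± 0.25 (adjusted p = 8e-14).

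RRTF1 (AT4G34410, also ERF109), an ethylene response factor of the wound response, was mostly a gene of grafted bottoms. It stood at 355 and 432 there at 72 h, 24 and 28 in grafted tops and 0 and 4 in separated tops. At 240 h grafted bottoms were at 5054 and 2066, and grafted tops at 1623 and 359 overlapped separated tops at 1026 and 581. At 48 h grafted bottoms were at 108 and 39 and separated bottoms at 2 and 0, a difference of 2.56 ± 0.49 (limma adjusted p = 3.2e-05). Chosen after their values were seen, AT1G19210, of the same DNA-binding superfamily, and WRKY53, a stress-induced factor, had grafted tops at 0.120 and 0.2497 times the bottoms at 72 and 120 h.

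The largest ratio belonged to GRP9 (AT2G05440), which encodes a glycine-rich protein. It was at 1 and 7 in grafted tops at 72 h and at 1943 and 2259 at 120 h, with 4812 and 5308 in grafted bottoms and 34 and 128 in separated tops. At 240 h separated tops stood at 2637 and 1586, above grafted tops at 268 and 797. At 168 h grafted bottoms were at 4577 and 4726 and separated bottoms at 27 and 32. Over 168 and 240 h grafted exceeded separated bottoms by 6.18 ± 0.32 (limma adjusted p = 8.7e-22), and tops differed by 0.06 ± 0.32 (adjusted p = 0.92). That value for tops averages opposite differences, since at 168 h the mean was 2482.5 in grafted and 567 in separated tops.

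Further members with large ratios had their larger fold at 120 h. AT2G38600, annotated as an acid phosphatase, was at 9 and 6 in grafted tops at 72 h and at 249 and 224 at 120 h. AT1G21140, annotated as a vacuolar iron transporter, stood at 289 and 378 in grafted tops and 4 and 3 in separated tops at 120 h, and at 203 and 137 against 565 and 518 at 240 h. In grafted bottoms it was already at 113 and 147 at 48 h. MYB14 (AT2G31180), a MYB transcription factor, was at 568 and 367 in grafted tops and 69 and 89 in separated tops at 120 h, after 146 and 222 in grafted and 82 and 95 in separated tops at 72 h. The ERF-family gene AT4G28140 varied between replicates, at 282 and 72 in grafted tops at 120 h.

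The 11 members that passed all 6 contrasts at 168 and 240 h were AT1G03620, AT1G03820, AT1G14630, AT2G01610, AT2G38600, PLP6 (AT2G39220), AT3G18900, AT4G00890, AT5G05960, NAC096 and HVA22E (AT5G50720). Those outside the naming rule are named because all 11 are listed. AT2G01610, annotated as an invertase or pectin methylesterase inhibitor, stood at 1276 and 893 in grafted and 186 and 149 in separated tops at 168 h. The tops differed by 1.77 ± 0.33 (limma adjusted p = 3e-05). AT3G18900 differed by 1.40 ± 0.23 (adjusted p = 4.3e-06) and the lipid transfer protein gene AT5G05960 by 0.52 ± 0.19 (adjusted p = 0.042). Without replicate 2 of separated tops at 240 h, 7 members passed.

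Families were counted by annotation after the values were seen and are not tested. The C1 domain family gave 5 members of 144 listed genes, all with the larger fold at 72 h. HSP20-like chaperones gave 3 of 31, the HVA22 family 3 of 11 and the AWPM-19-like family 2 of 4. NAC factors gave 3 of 84. One HSP20-like member was RTM2 (AT5G04890), which with the lectin RTM1 (AT1G05760) restricts the long-distance movement of a potyvirus in phloem. RTM1 stood at 835 and 581 in grafted tops and 212 and 162 in separated tops at 72 h, and RTM2 at 1535 and 1043 against 355 and 345. These values helped to choose both genes. The ratio used for the choice was 1.27 for RTM1 and 1.40 for RTM2 at 120 h alone, and 1.06 and 1.08 at 168 h.

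The members lay on all 5 chromosomes, with 40, 19, 22, 21 and 24 genes on chromosomes 1 to 5. Within 3 genes of each other lay 5 pairs. The ankyrin repeat genes AT5G04680, AT5G04690 and AT5G04700 are next to each other, and reads of such similar neighbours may not have been told apart by the counting.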

How the data were processed

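RNA-seq of 82 hypocotyl libraries in 41 groups of 2, which the labels call independent biological replicates, was used. Per the submitters' processing notes, cutadapt 1.8.1, Bowtie2 and the TAIR10 genome were used. The counter, annotation release, scaling and use of strand were not given in the sources used here, which leaves antisense, overlapping and near-identical genes uncertain. The deposited values are treated as a score, normalised by the authors per library, in a second table also per gene length, and rounded to whole numbers. No count test was run, since the values are not counts.

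Values were multiplied by 1 constant that sets the median column sum to 1 M (x). Tests on log2(x + 1) covered 20766 genes, those reaching x = 1 in 2 or more libraries, and the pseudocount understates the change of low genes. They were run with limma 3.58.1 in R 4.3.3 (1 mean per group, 41 residual degrees of freedom, eBayes with a trend). Calls are at an adjusted p under 0.05. Python 3.11.15 with pandas 2.3.3 and NumPy 2.4.6 read the tables, and Matplotlib 3.10.9 drew the plots. Gene names and sequences are from RefSeq TAIR10.1, which matched 26719 identifiers. The files hold no coordinates, so positions are of that reference.

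Grafted tops and bottoms with the same replicate number deviated from their group means together (r = 0.148 to 0.506, at 8 of 8 times). Same-numbered grafted and separated tops had r over 0.1 at 6 of 8 times, and up to 0.494. Every other pair of conditions had r over 0.1 at 5 or 6 of 8 times, with a lowest value of -0.144. A link by replicate number was therefore not limited to grafted tops and bottoms. It comes from the values and from no label. Whether it pairs tops and bottoms of the same grafted plants was not tested. Named genes were the list members, the 8 with the largest fold, the 6 with the highest level per length, up to 5 of the joined call per window, the 3 with the lowest late contrast and the 3 nearest each threshold. The 16 gene lists, the members and the tests were chosen with earlier results of these data known. The tests were tried on simulated data. Alternatives were other pseudocounts, filters, scalings, thresholds, tables and libraries left out.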

Additional observations from a re-analysis of the deposited data

Results flagged for a closer look

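Outliers could not be looked for, because every group has 2 libraries. The difference of differences, grafted minus separated in tops less the same in bottoms, passed limma's test for many members. A negative sign may be carried over from the choice of members, which was not tested. It was negative for 50 members and positive for 3 at 6 to 24 h, negative for 88 and positive for 2 at 48 h, and negative for 116 at 168 and 240 h. Of the 31 named genes, 20 passed at 48 h, all 20 with a negative value on the log2 scale. The vascular factors had -4.36 for HB-8, -2.72 for WOX4, -2.06 for LBD4. The phloem genes had -2.28 for SUS6, -1.62 for ENODL9, -1.56 for NAC045, -1.37 for SUS5. The transcription factors of stress and wounding had -3.84 for AT5G51190, -3.46 for NAC096, -2.38 for RRTF1, -1.19 for MYB14. The remaining values were -2.94 for AT1G03820, -2.33 for AT1G21510, -2.27 for AT1G03620, -1.89 for COPT4, -1.86 for AT2G01610, -1.51 for AT2G47950, -1.47 for AT3G24780, -1.38 for AT3G14170, -1.11 for AT5G05960.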

How the results depend on the processing

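The number of members was 126 as described, 317 at a fold of 1.5, 17 at a fold of 3 and 195 from 120 h alone, and 99 to 154 with each of 20 libraries left out. It was 137 from 72 h alone, 178 after median of ratios scaling, which kept all 126, and 165 after quantile normalisation, which kept 108. Of the 126, 76 were kept from 72 h alone, 63 from 120 h alone and 86 to 126 with a library left out. Members called higher in joined tissue at 48 h numbered 0, but 1 with a pseudocount of 5 and 2 when only the libraries of that time were fitted. At 168 and 240 h there were 11, but 7 with a pseudocount of 0.25 and 17 with one of 5, and 7 to 12 with a library left out. Members higher in grafted than separated tops at 48 h numbered 1, but 0 with a pseudocount of 0.25, 4 with one of 5, 2 when only that time was fitted and 0 to 0 with a library left out. At 168 and 240 h they numbered 21, but 13 with a pseudocount of 0.25 and 35 after quantile normalisation, and 13 to 20 with a library left out. The late difference of differences of NAC096 turned to 0.0304 (adjusted p = 0.949) after quantile normalisation, and the cause was not tested. Setting column sums equal moved the median of all genes in the bottoms by 0.32 at 48 h and by 0.39 later. With the replicate block, 13 members were called at 168 and 240 h and 112 were higher in grafted than separated bottoms at 48 h, and no count moved by over 1.5 times. Depth limits genes near a value of 50.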
